A study of Saccharomyces cerevisiae with 24 samples.

Results

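YNL134C and YMR090W, 2 of the 6251 open reading frames (ORFs) measured, were chosen by their acute log2 ratio, a very large rise in budding yeast cells (Saccharomyces cerevisiae) exposed to a high dose of hydrogen peroxide. The acute values therefore describe the choice and carry no test here. Both ORFs had values on all 24 arrays, and both were among the 4373 ORFs that had values in every group and were tested.

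Each array carried cDNA of treated and of untreated cells in 2 colours. The 6 groups had 4 arrays each. Wild type cells (BY4741) were pretreated with 0.1 mM H2O2 for 45 min, adapted (0.1 mM for 45 min and then 0.4 mM for 1 h) or acutely treated with 0.4 mM for 1 h. Strains with a deletion of MGA2, ROX1 or YAP1, taken from the deletion collection in the same background, were pretreated with 0.1 mM. The deleted genes encode transcription factors: Mga2 acts in fatty acid synthesis and the hypoxic response, Rox1 represses hypoxic genes, and Yap1 activates genes of the peroxide response. Per the methods, a wild type culture was grown from a single colony and divided into a treated and a sham-treated portion. For the yap1Δ arrays the labels give treated deletion cells against untreated cells, while the text of the study speaks of yap1Δ against wild type, so the strain of the untreated RNA was not settled. Were it wild type, each yap1Δ ratio would mix strain and treatment. The labels give 45 min for pretreatment and the methods imply 1 h.

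YNL134C encodes a protein of the medium-chain dehydrogenase and reductase family, which holds the alcohol dehydrogenases and quinone reductases of yeast, and it is known as an NADH-dependent reductase of aldehydes. YMR090W encodes a protein of unknown function that resembles sugar nucleotide dehydratases and atypical short-chain dehydrogenases, a separate family that binds the same nicotinamide cofactors. Peroxide oxidizes membrane lipids to reactive aldehydes, and reductases of both families remove such carbonyl compounds. In yeast, peroxide genes are chiefly activated by Yap1 with Skn7, and a broader set shared by many stresses is activated by Msn2 and Msn4. RNA was extracted from whole cultures, so a change in every cell and a larger change in some cells cannot be told apart.

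In acutely treated cells the treated to untreated ratio of YNL134C was 63.8-fold, 52.3-fold, 20.5-fold and 39.5-fold on the arrays of replicates 1 to 4, or 5.99, 5.71, 4.36 and 5.31 on the log2 scale. The mean was 5.34 ± 0.71 (SD, n = 4), a 40.6-fold ratio, which ranked 7th of 6242 ORFs. The lowest of these arrays lay far above the highest array of any other group, which reached 1.36.

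The ratio of YMR090W was 31.7-fold, 26.6-fold, 39.5-fold and 48.0-fold on the same arrays, with log2 values of 4.99, 4.73, 5.31 and 5.58. Its mean of 5.15 ± 0.37 (SD, n = 4), a 35.6-fold ratio, ranked 8th. It varied less between arrays than YNL134C and likewise lay clear of every array of the other groups, the highest of which was 1.87. YNL134C had the larger ratio on replicates 1 and 2 and YMR090W on replicates 3 and 4, with a mean difference on the same array of 0.19 and a range from -0.95 to 1.01. In this group 73.8% of the ORFs tested were called, 32.5% higher and 41.3% lower.

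The ORFs directly around the pair in the acute order were ECM4, a glutathione transferase ranked 6th with a mean log2 ratio of 5.42, and DDR2, a small stress protein ranked 9th with 4.86. TSA2, a cytosolic peroxiredoxin, was first with 6.62.

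**Figure D1:**
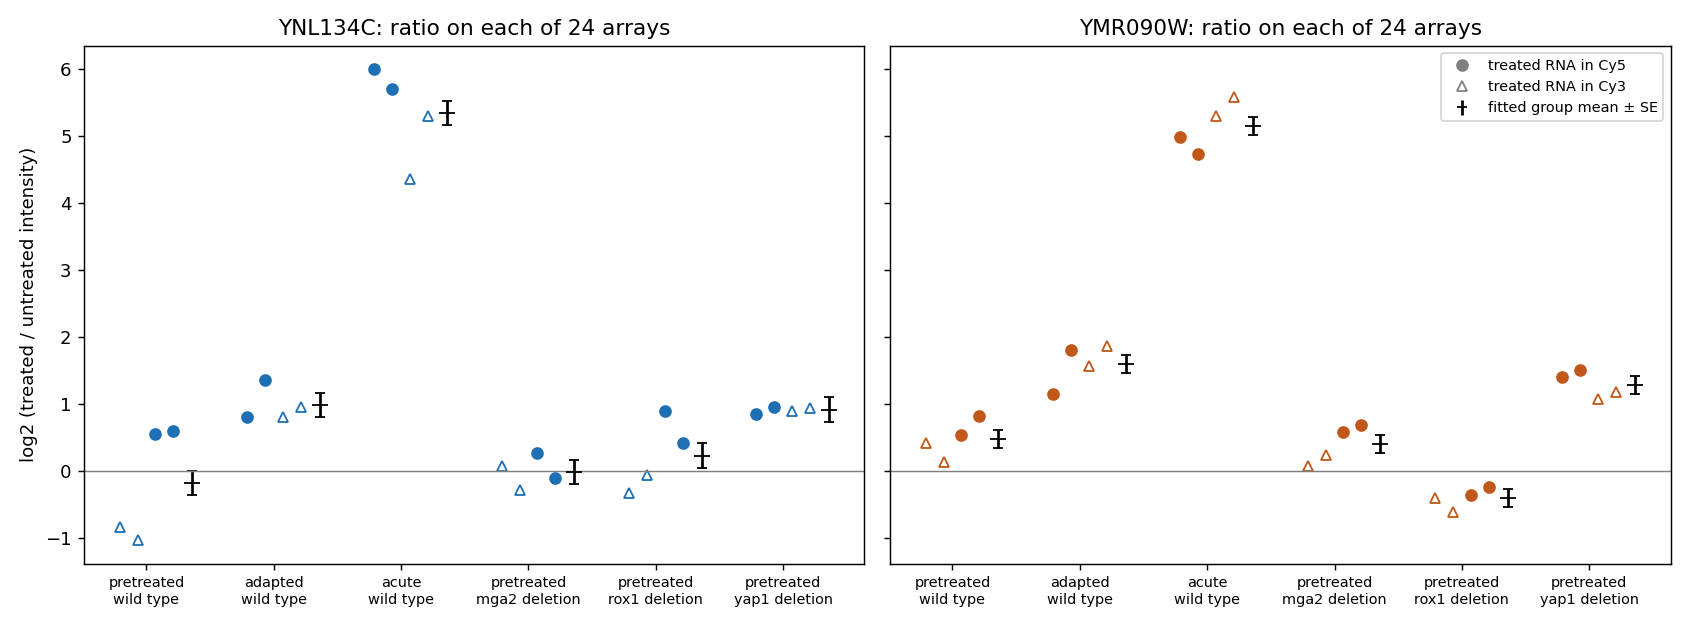
Log2 ratio of treated to untreated intensity (y axis) of YNL134C (left) and YMR090W (right) on each of the 24 arrays, by group (x axis). Filled circles are arrays with treated RNA in Cy5, open triangles those with treated RNA in Cy3, and black marks the fitted group mean with its SE. The acute arrays lie between 4.36 and 5.99, and all others between -1.03 and 1.87.

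The 2 channels behind these ratios behaved differently for the 2 ORFs. On the acute arrays the treated channel of YNL134C stood at 16770, 24591, 65854 and 62317 units of normalized intensity, between the 99.6th and 99.8th percentile of its array. The untreated channel was at 263, 470, 3210 and 1576 units, a 12.2-fold spread that ran from the 23.4th to the 88.2nd percentile. The readings of 263 and 470 units came with untreated RNA in Cy3, and those of 3210 and 1576 units with it in Cy5. The readings in Cy3 lay below every untreated reading of YNL134C in the pretreated and adapted wild type groups (975 to 1912 units). The lowest YNL134C ratio, on replicate 3, thus came with the brightest treated channel and with the brightest untreated channel.

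The treated channel of YMR090W lay between 8777 and 14111 units in acute cells, at the 96.7th to 97.8th percentile. Its untreated channel lay between 222 and 374 units on all wild type arrays, the 20.7th to 33.4th percentile. YMR090W was thus a dim ORF in untreated wild type cells and a bright one after the acute dose, whereas YNL134C was already well above the middle of its array in untreated cells of the pretreated (1061 to 1912 units) and adapted (975 to 1695 units) groups.

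Arrays of the deletion strains were brighter, with medians from 1049 to 1492 units against 456 to 612 units in wild type groups, so units are not set against each other across strains. The untreated channel of YMR090W stood at 1086 to 2079 units in the mga2Δ strain, 1097 to 1724 in the rox1Δ strain and 867 to 974 in the yap1Δ strain. That of YNL134C stood at 3891 to 4611, 2510 to 7360 and 1618 to 2077 units. In the deletion strains, which met 0.1 mM only, the highest treated percentile was 89.2 for YNL134C and 79.0 for YMR090W, below the acute ones. Wild type cells at that dose had treated percentiles of 70.1 to 80.4 for YNL134C and 23.1 to 48.5 for YMR090W. Percentiles in the deletion strains are over fewer ORFs (5651, 4385 and 5620 in the mga2Δ, rox1Δ and yap1Δ strains). The acute and pretreated wild type groups had 6242 and 6232, so these scales differ too.

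**Figure D2:**
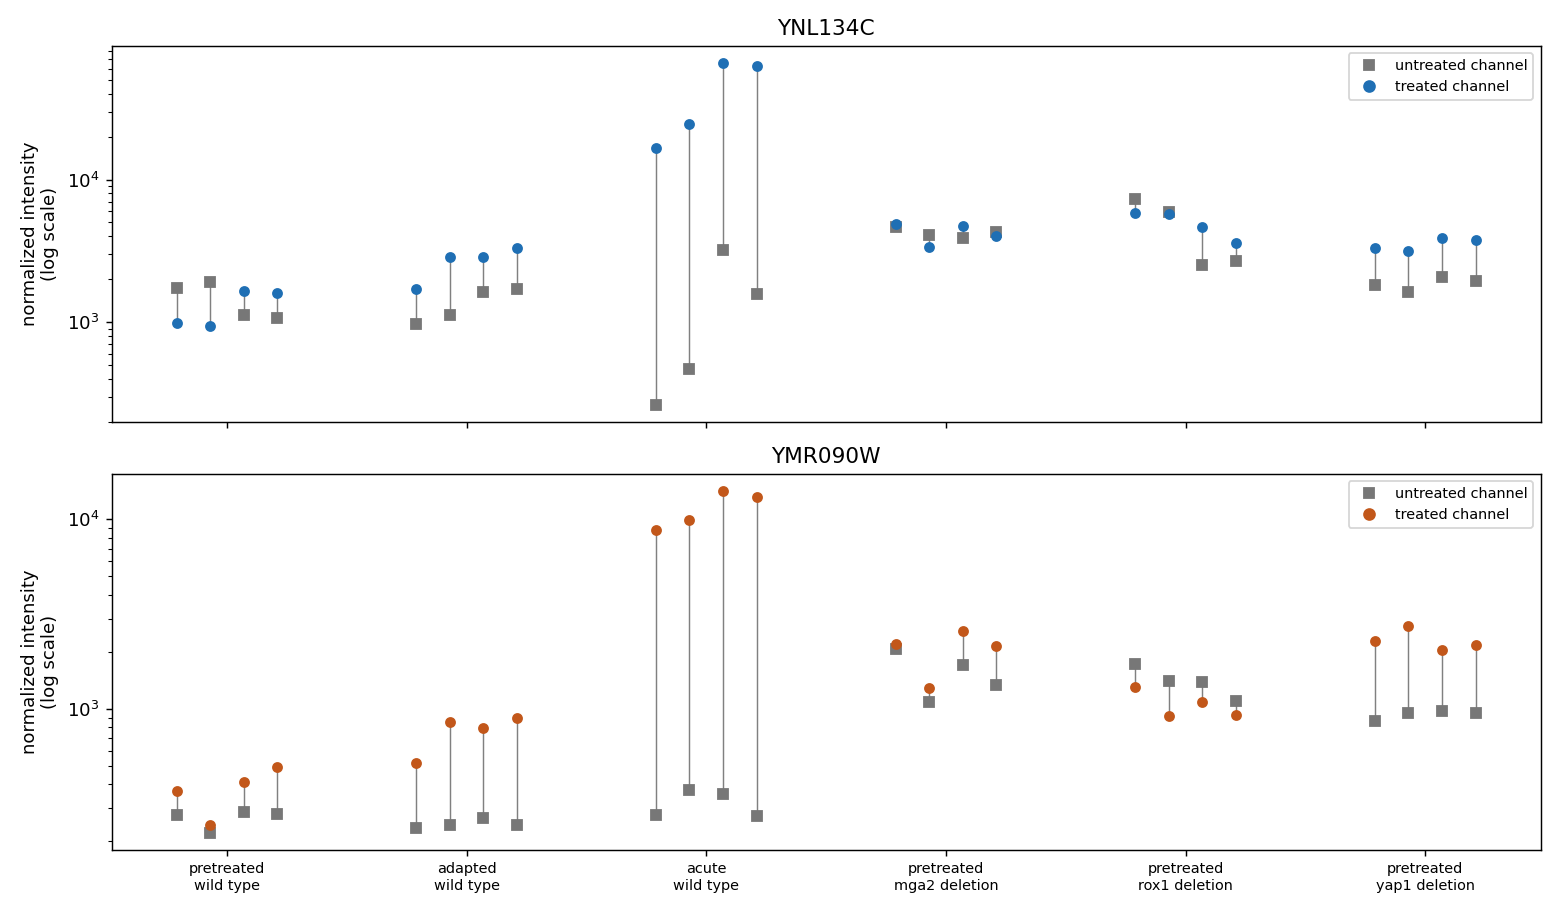
Normalized intensity (y axis, log scale) of the untreated channel (grey squares) and the treated channel (coloured circles) of YNL134C (top) and YMR090W (bottom) on each of the 24 arrays, by group (x axis). A grey line joins the channels of an array. On the acute arrays the untreated channel of YNL134C spans 263 to 3210 units, while that of YMR090W stays between 274 and 374 units.

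In adapted cells, which met the same high dose after the mild one, both ORFs rose, by much less. The YNL134C log2 ratios were 0.82, 1.36, 0.82 and 0.96, and those of YMR090W were 1.15, 1.81, 1.57 and 1.87. All 8 values were above 0. The fitted ratio of YNL134C was 0.99 ± 0.18 (SE), or 1.98-fold (limma adjusted p = 0.000712), and that of YMR090W was 1.60 ± 0.13, or 3.03-fold (limma adjusted p = 2.11e-08). In this group 6.29% of the ORFs tested were called higher and 7.27% lower, or 13.6% in all. YMR090W was the higher of the 2 on all 4 arrays, by a mean of 0.61 log2 units, and ranked 10th of 6219 ORFs where YNL134C ranked 42nd.

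The acute ratio exceeded the adapted ratio by 4.36 log2 units for YNL134C, the 3rd largest such difference among the ORFs tested, and by 3.55 for YMR090W, the 11th largest. These differences contain the acute values by which the pair was chosen and were not tested.

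After pretreatment alone, YNL134C split by dye. Its log2 ratios were -0.82 and -1.03 on the 2 arrays with treated RNA in Cy3, and 0.56 and 0.60 on the 2 arrays with treated RNA in Cy5. The fitted ratio was -0.17 ± 0.18 (SE; limma adjusted p = 0.836), and the ORF ranked 5826th of 6232, with ranks from 341 to 6194 on single arrays. The direction thus differed between the 2 dye orientations.

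YMR090W gave 0.42, 0.14, 0.54 and 0.82 after pretreatment, all above 0. Its fitted ratio of 0.48 ± 0.13 (SE), ranked 27th, did not pass the test across all ORFs (limma adjusted p = 0.106), in a group where 1.01% of the ORFs were called, 0.617% higher and 0.389% lower. When the spread was estimated from the pretreated arrays alone, the same value passed (limma adjusted p = 0.0024), as did the value of YNL134C (-0.17, limma adjusted p = 0.0192), but in that fit 33.9% of the ORFs tested were called.

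Adapted cells, which met the high dose after pretreatment, were set against cells that were pretreated only. The groups also differ by the further 1 h and come from separate cultures, and these cannot be told apart from the dose. The difference was 1.12 log2 units for YMR090W (95% interval 0.73 to 1.51, limma adjusted p = 0.00358) and 1.16 for YNL134C (0.63 to 1.69, limma adjusted p = 0.0368). The adapted arrays lay above every pretreated array for both ORFs. In this comparison 0.503% of the ORFs tested were called, 0.434% higher and 0.0686% lower. The call of YNL134C did not hold without adapted replicate 2 (adjusted p = 0.116), 3 (0.186) or 4 (0.189), without pretreated replicate 1 (0.199) or 2 (0.264), or without the dye term (0.51, limma throughout). That of YMR090W held in each of these fits.

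**Figure D3:**
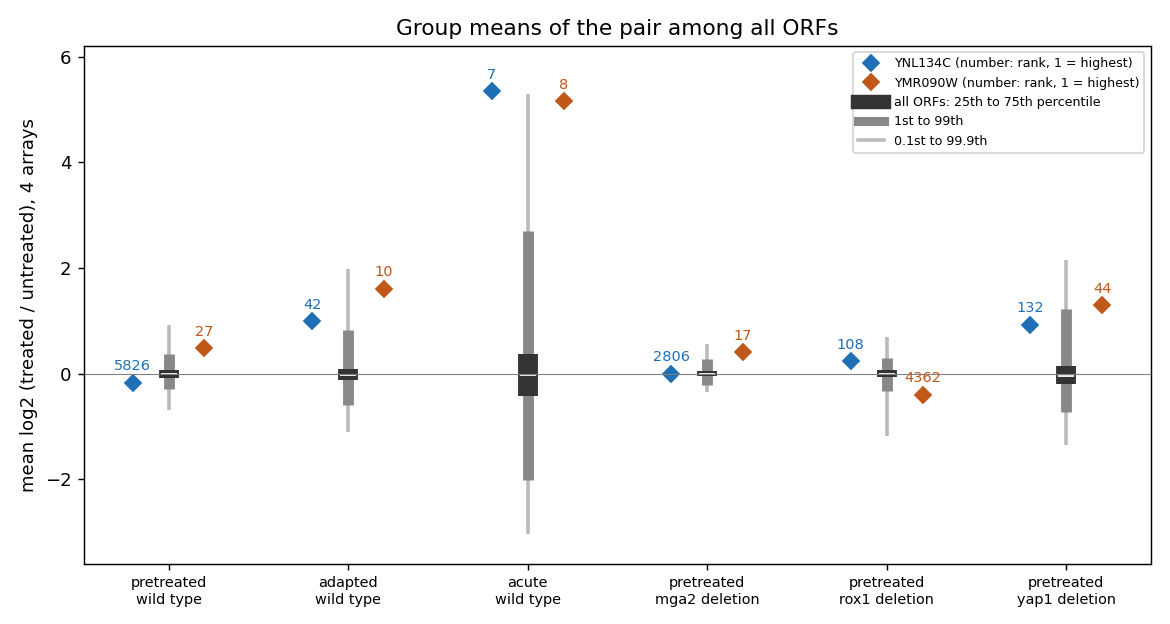
Mean log2 ratio over 4 arrays (y axis) of YNL134C (blue) and YMR090W (orange) in each group (x axis), with their rank, 1 being the highest, beside the distribution of all ORFs with values in the group (25th to 75th, 1st to 99th and 0.1st to 99.9th percentile as bars of falling width, median in white). The pair stands at ranks 7 and 8 in the acute group, and at 108 and 4362 of 4385 in the rox1Δ strain.

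On the arrays of the pretreated yap1Δ strain both ORFs were higher in the treated channel than in the untreated one, the strain of which was not settled. YNL134C gave 0.86, 0.97, 0.91 and 0.95 on the log2 scale, the narrowest set of any group, and YMR090W gave 1.40, 1.51, 1.07 and 1.18. The fitted ratios were 0.92 ± 0.18 (SE) for YNL134C (1.90-fold, limma adjusted p = 0.000429, rank 132 of 5620) and 1.29 ± 0.13 for YMR090W (2.45-fold, limma adjusted p = 1.17e-07, rank 44). In this group 35.9% of the ORFs tested were called, 15.3% higher and 20.6% lower.

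Both values lay above the wild type pretreatment on every array. The ratio was higher than in wild type by 1.09 log2 units for YNL134C (95% interval 0.56 to 1.63, limma adjusted p = 0.00507) and by 0.81 for YMR090W (0.42 to 1.20, limma adjusted p = 0.00426), where 16.4% of the ORFs were called, 9.56% higher and 6.88% lower. Without the dye term the difference of YNL134C missed the threshold (limma adjusted p = 0.0835). A rise in the ratio of a strain says nothing of the level in its untreated cells.

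In the rox1Δ strain the mean of YNL134C was above that of YMR090W, the reverse of pretreated wild type cells. YMR090W gave -0.40, -0.61, -0.36 and -0.23, each below 0 and each below every wild type pretreated array. Against wild type its ratio was lower by 0.88 log2 units (difference -0.88, 95% interval -1.27 to -0.49, limma adjusted p = 0.0139), at rank 4356 of the 4373 ORFs tested, of which 1.44% were called, 0.526% higher and 0.915% lower. The ratio of -0.40 ± 0.13 (SE) in the strain itself was not past the threshold (limma adjusted p = 0.393), in a group where 0.0915% of the ORFs were called, 0.0229% higher and 0.0686% lower. The call against wild type did not hold without rox1Δ replicate 2 (-0.83, limma adjusted p = 0.0687) or wild type pretreated replicate 4 (-0.78, limma adjusted p = 0.076). It was also lost without the dye term (-0.88, limma adjusted p = 0.0639). Opposite signs in pretreated wild type and rox1Δ cells were not particular to YMR090W. TSA2 had 1.64 and -1.28 and GPX2 -1.61 and 0.74, while GRE2 kept its sign (-0.70 and -0.11). The share of all ORFs with opposite signs was not counted, and the cause was not tested.

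YNL134C in the same strain gave -0.33 and -0.05 with treated RNA in Cy3, and 0.90 and 0.42 with treated RNA in Cy5. Its fitted ratio of 0.23 ± 0.18 (SE; limma adjusted p = 0.974) and its difference from wild type of 0.41 (95% interval -0.13 to 0.94, limma adjusted p = 0.600) did not pass the test, and its arrays overlapped those of wild type. YNL134C was the higher of the 2 ORFs on all 4 rox1Δ arrays, by a mean of 0.63 (0.08 to 1.26). YMR090W was the higher on all 4 arrays of the adapted, mga2Δ and yap1Δ groups. In pretreated wild type cells YMR090W was the higher on 3 of 4 arrays, with a mean of YNL134C minus YMR090W of -0.65.

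In the mga2Δ strain YNL134C stayed near 0, with 0.08, -0.28, 0.28 and -0.10 on the 4 arrays and a fitted ratio of -0.01 ± 0.18 (SE; limma adjusted p = 0.999, rank 2806 of 5651). YMR090W gave 0.09, 0.25, 0.59 and 0.69, with a fitted ratio of 0.40 ± 0.13 at rank 17 (limma adjusted p = 0.999, where 0.0229% of the ORFs were called). With the spread estimated from the mga2Δ arrays alone the adjusted p was 0.0289, where 0.503% of the ORFs were called, and 0.073 once all ORFs with values there were included (limma). The differences from wild type were 0.17 (95% interval -0.37 to 0.70) and -0.08 (-0.46 to 0.31), both with a limma adjusted p of 1.00 and with overlapping arrays. The intervals leave room for a change of up to 0.70 log2 units in YNL134C and down to -0.46 in YMR090W.

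**Figure D4:**
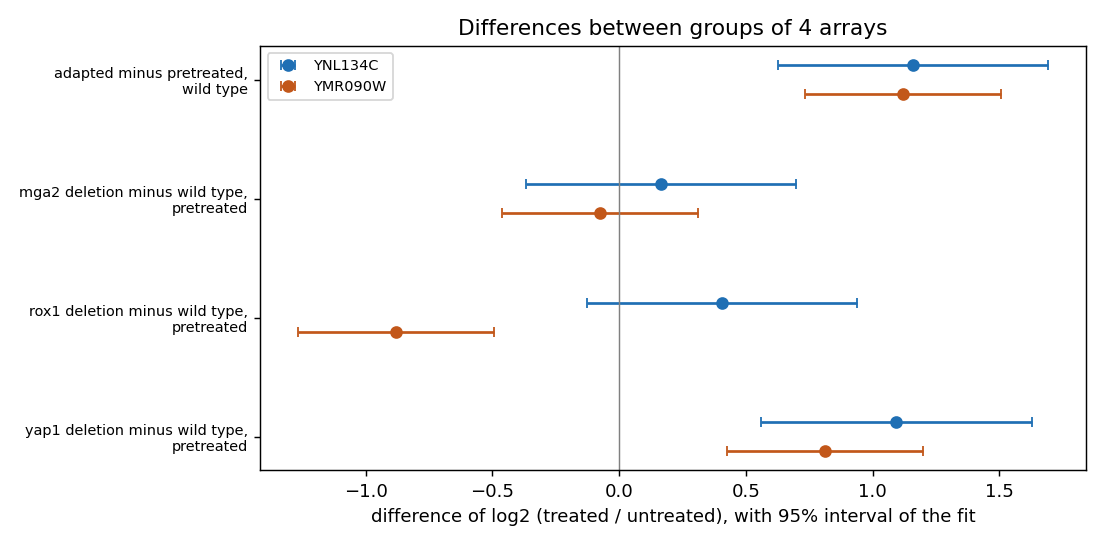
Differences of the log2 ratio between groups of 4 arrays (x axis) with the 95% interval of the fit, for YNL134C (blue) and YMR090W (orange), by comparison (y axis). In the rox1Δ comparison YMR090W lies at -0.88 and YNL134C at 0.41, and the intervals of both mga2Δ differences span 0.

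Ordered by group, the ratio of YNL134C fell from acute (5.34) to adapted (0.99), yap1Δ (0.92), rox1Δ (0.23), mga2Δ (-0.01) and pretreated wild type cells (-0.17). Only the first step, from acute to adapted, separated neighbouring groups, since the arrays of every later pair of neighbours overlapped. For YMR090W the order was acute (5.15), adapted (1.60), yap1Δ (1.29), pretreated wild type (0.48), mga2Δ (0.40) and rox1Δ (-0.40). Here the arrays of adapted and yap1Δ cells overlapped, as did those of the wild type and mga2Δ pretreatments. The other 3 steps had no overlap. For both ORFs the acute step holds the values that chose the pair. The share of all ORFs without overlap at each step was not counted.

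The dye moved YNL134C more than YMR090W in the pretreated, acute and rox1Δ groups. The mean of the arrays with treated RNA in Cy5 exceeded that of the arrays with Cy3 by 1.51 log2 units in pretreated, 1.02 in acute (5.85 against 4.83) and 0.85 in rox1Δ cells, but by 0.20 or less in the other 3 groups. In the fit shared by all groups the Cy5 minus Cy3 difference was 0.63 for YNL134C (limma adjusted p = 0.000684), and 25.7% of the ORFs tested had a larger one. For YMR090W it was 0.10 (limma adjusted p = 0.421), below the median size of 0.37 over all ORFs. That shared value joins groups of opposite sign, from -0.58 in acute to 0.47 in mga2Δ cells. In the adapted (-0.24), mga2Δ (0.47) and yap1Δ (0.33) groups the dye difference of YMR090W was larger in size than that of YNL134C.

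The 4 arrays of a group had nearly the same set of log2 ratios as deposited, with quantiles that differed by at most 0.00729, so a ratio was set by its rank on the array. YNL134C on acute replicate 4 and YMR090W on acute replicate 3 both ranked 8th, and both had the ratio 39.5-fold, although their treated channels stood at 62317 and 14111 units. YNL134C was ranked 202nd on adapted replicates 1 and 3, with 0.82 on each. The spread between arrays of such high ranks can therefore be understated, as for TSA2, which was first with 6.62 on every acute array. How far the spread of the pair was changed was not measured. The SD of log2 ratios over all ORFs of an array was 0.946 in the acute group against 0.267 to 0.448 in the others.

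The ORFs most like each member were sought by the root mean square (RMS) difference of the log2 ratio over the 24 arrays, which had a median of 2.36 to YNL134C and 2.37 to YMR090W over the other 4372 ORFs tested. Nearest to YNL134C were TRX2, a cytosolic thioredoxin (0.53), PRX1, the mitochondrial peroxiredoxin (0.56), DDR2 (0.65), YMR090W itself (0.70) and APE1, a vacuolar aminopeptidase (0.70). Nearest to YMR090W were PRX1 (0.52), HSP31, a DJ-1 family protein with glyoxalase activity (0.54), GTT2, a glutathione transferase (0.61), TRX2 (0.66) and APE1 (0.67), with YNL134C in 7th place.

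The nearest ORFs also showed where the members went their own way. TRX2 had fitted ratios of -0.21 in pretreated, 1.53 in adapted, 4.55 in acute, 0.59 in mga2Δ and 1.06 in yap1Δ cells, where YNL134C had -0.17, 0.99, 5.34, -0.01 and 0.92. HSP31 and GTT2 stood at -0.31 and -0.34 in the rox1Δ strain, where YMR090W stood at -0.40, which was not called. Both stood at 0.33 in pretreated cells. APE1, TRX2 and PRX1 stood at -0.04, 0.13 and 0.18 in the rox1Δ strain, whose arrays were used in the search. HSP31 had 1.03 in adapted and 1.55 in yap1Δ cells. GTT2, at 5.42 in acute and 1.06 in adapted cells, stood at 0.05 in the yap1Δ strain, where YMR090W stood at 1.29.

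The RMS rests largely on the acute arrays. Over the 20 arrays outside the acute group none of the 5 ORFs nearest to YNL134C was the same, and 1 of the 5 nearest to YMR090W was, namely HSP31 (0.32). Over those arrays YMR090W was 554th in order of likeness to YNL134C, and YNL134C was 62nd in order of likeness to YMR090W.

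**Figure D5:**
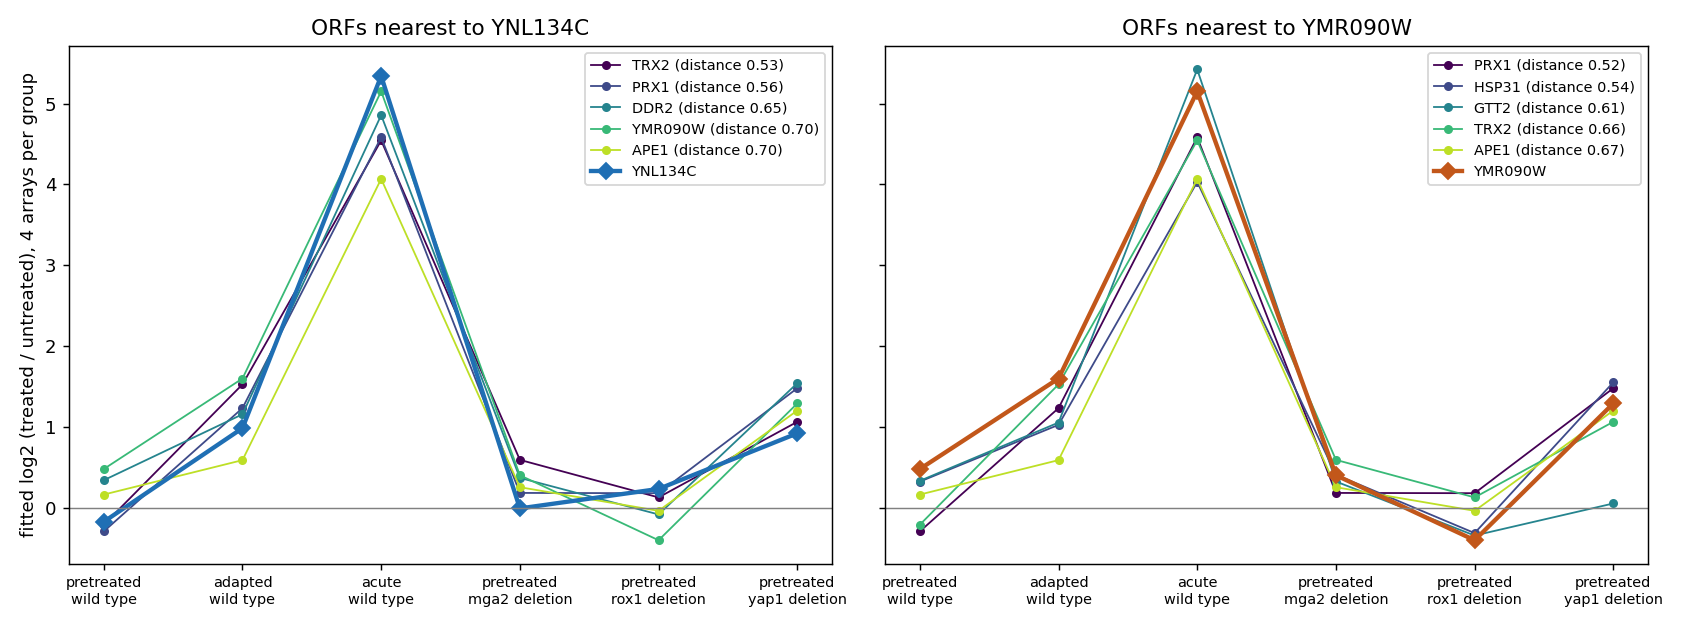
Fitted log2 ratio (y axis) of YNL134C (left, thick line) and YMR090W (right, thick line) in each group (x axis), with the 5 ORFs nearest to each over the 24 arrays (thin lines, RMS difference in brackets). All lines peak in the acute group, and GTT2 stands at 0.05 in the yap1Δ strain while YMR090W stands at 1.29.

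The closest relatives of YNL134C in the yeast genome, YCR102C and YLR460C, are proteins of the same family whose function is unknown. Related sequences can share array signal, and the probes were not examined here. In acute cells YCR102C had log2 ratios of 1.70, 2.23, 3.19 and 1.88 (mean 2.25, rank 95), and YLR460C had 1.91, 2.39, 3.13 and 2.45 (mean 2.47, rank 70). Both were highest on replicate 3, the array on which YNL134C was lowest. In adapted cells their means were 0.13 and -0.10, and in the mga2Δ strain both had a mean of -0.28. They had values on 12 and 16 arrays only, none of them in the rox1Δ or yap1Δ strain, and were not among the ORFs tested.

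The annotated neighbours on the chromosomes showed no comparable acute ratio. Beside YNL134C on chromosome XIV, FPR1, the peptidyl-prolyl isomerase that binds rapamycin, had a mean of -0.14 in acute cells, and FYV6 had 0.12. Beside YMR090W on chromosome XIII, YTA12, a subunit of a mitochondrial protease, had 0.94, and NPL6, a subunit of the RSC chromatin remodeler, had -0.13. FPR1 was split by dye on all wild type arrays, since its log2 ratio was positive on each array with treated RNA in Cy5 (0.54 to 1.07) and negative on each with Cy3 (-1.54 to -0.65).

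Among 10 medium-chain dehydrogenases tested, the family of YNL134C, 5 were called higher in the yap1Δ strain and none lower, beside 15.3% and 20.6% of all ORFs tested, with a median log2 ratio of 0.33 against -0.07 over all ORFs tested. BDH1, the butanediol dehydrogenase, reached 0.92 there (limma adjusted p = 0.000125), the same value as YNL134C. In adapted cells 1 of the 10 was called higher, beside 6.29% of all ORFs, namely ETR1, the mitochondrial enoyl reductase (0.30, limma adjusted p = 0.00884), and the family's median was -0.05. On acute treatment 6 were called higher and 1 lower, beside 32.5% and 41.3% of all ORFs. The highest of those tested was ZTA1, a quinone oxidoreductase, at 1.83, well under the 5.34 of YNL134C. YCR102C and YLR460C, on the same list of 19 but not tested, had higher acute means (2.25 and 2.47). On wild type pretreatment none of the 10 was called, in a group where 1.01% of all ORFs were called.

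Of 14 short-chain dehydrogenases tested, the wider group that YMR090W resembles, 3 rose and 2 fell in adapted cells, beside 6.29% and 7.27% of all ORFs. YGL039W, an aldehyde reductase, was highest at 0.64 (limma adjusted p = 0.000579), and TSC10, a reductase of sphingolipid synthesis, lowest at -0.36 (limma adjusted p = 0.00605). In the yap1Δ strain 6 were called higher and 2 lower, beside 15.3% and 20.6% of all ORFs, led by GRE2, a methylglyoxal reductase, at 1.22 (limma adjusted p = 4.94e-07), close to the 1.29 of YMR090W. On acute treatment 9 were called higher and 5 lower, beside 32.5% and 41.3% of all ORFs, with GRE2 highest of the 14 at 3.91. OSI1, on the same list of 21, had no group mean in the rox1Δ and yap1Δ strains and was not tested. It ranked 2nd in the acute group with a mean of 5.71, above YMR090W.

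A further list held reductases of carbonyl compounds outside these families, mostly aldo-keto reductases. Of 9 tested, 5 were called higher in adapted cells (median 0.49), 7 in the yap1Δ strain (median 0.61) and 9 on acute treatment (median 1.70), beside 6.29%, 15.3% and 32.5% of all ORFs, and none was called lower in these groups. YJR096W, an aldo-keto reductase, stood at 0.64 in adapted (limma adjusted p = 0.00399) and 1.53 in yap1Δ cells (limma adjusted p = 3.06e-08). Median ratios over all ORFs tested were -0.04 in adapted, -0.07 in yap1Δ and -0.08 in acute cells. AAD4, on this list of 15 but not among those tested, ranked 10th in the acute group with a mean of 4.79.

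Genes known as targets of Yap1 and genes of the general stress response gave different counts in the yap1Δ strain. Of 15 Yap1 targets tested, 5 were called higher and 2 lower there (median 0.12), beside 15.3% and 20.6% of all ORFs, with TSA2 highest at 1.84 and TRR1, the thioredoxin reductase, lowest at -0.38 (limma adjusted p = 0.0448). Of 19 general stress genes, 18 were called higher and none lower (median 1.15), with the small heat shock protein HSP26 at 3.18 and the membrane stress protein HSP12 at 3.60 (limma adjusted p = 1.42e-13). The pair, at 0.92 and 1.29, lay above the median of the Yap1 targets and on either side of the median of the stress genes.

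Both lists were called higher throughout on acute treatment, with 15 of 15 (median 2.89) and 19 of 19 (median 2.26), beside 32.5% of all ORFs. In adapted cells 5 Yap1 targets rose and 2 fell (median 0.13), and 9 general stress genes rose (median 0.39), beside 6.29% higher and 7.27% lower of all ORFs. In the rox1Δ strain against wild type, where YMR090W was lower, 2 Yap1 targets were lower and 5 higher, and 1 general stress gene was lower, beside 0.526% higher and 0.915% lower of all ORFs. The highest Yap1 targets were GPX2, a glutathione peroxidase, at 2.35 (limma adjusted p = 1.7e-05) and GSH1, which starts the synthesis of glutathione, at 1.22 (limma adjusted p = 6.01e-06). TSA2 was the lowest of the Yap1 targets at -2.92 (limma adjusted p = 8.8e-09), and HSP12 the lowest of the stress genes at -1.32 (limma adjusted p = 0.00106). These differences hold the wild type change too. In pretreated wild type and rox1Δ cells GPX2 stood at -1.61 and 0.74, GSH1 at -0.72 and 0.50, TSA2 at 1.64 and -1.28, and HSP12 at 0.76 and -0.57. On wild type pretreatment 6 of the 15 Yap1 targets were called lower and 1 higher, beside 0.389% and 0.617% of all ORFs. GRE2 is counted both as a short-chain dehydrogenase and as a Yap1 target, and some of the further reductases are counted in a second list too.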

How the data were processed

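The authors deposited 1 intensity per ORF and channel of each array, after background and quantile normalization, and the log2 ratio of treated over untreated intensity was computed from these values. The merging of spots and the filter behind missing values are not given in the sources used here. Missing ORFs numbered 9 to 32 per wild type group and 600, 1866 and 631 in the mga2Δ, rox1Δ and yap1Δ strains. Another deposited table numbers its spots without ORF names and was not used here.

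The 4373 ORFs with values on at least 3 of 4 arrays of every group were fitted with limma 3.58.1 in R 4.3.3 (lmFit and eBayes) over all 24 arrays, with a mean per group and 1 dye term per ORF, which left 17 residual degrees of freedom. Two-sided p-values were Benjamini-Hochberg adjusted over all ORFs tested, at a threshold of 0.05. The fit was run on simulated data with independent errors and 1 dye term per ORF shared by the groups. Those data held no dye difference that varies between groups, so they do not test that case. Values written ± SE are from the fit, and those written ± SD are over 4 arrays. Precision is limited by the number of arrays. Over ORFs, the SE had a median of 0.0987 in a group, and of 0.14 in a difference between groups. The 3 strain differences share the wild type pretreated arrays, and no comparison is made between them. Of the deleted genes, none had a value in its own deletion strain. The methods name 2 scanner models without assigning arrays to them.

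Named ORFs are the pair, the 5 nearest to each, those directly around them in the acute order, 2 relatives of YNL134C, the chromosome neighbours, the deleted genes, and up to 4 members of each of 5 lists, the 2 highest and 2 lowest of the comparison described. Members and lists were chosen with earlier results of these data known. Of 6251 ORFs, 5751 matched the gene table used for names and neighbours. Alternatives were fits with no dye term or with 1 per group, on fewer arrays, with centring, loess, a pseudocount of 50, the dimmest 20% of ORFs left out, the replicate number as a block, and each replicate left out in turn. Deviations of same-numbered arrays in the yap1Δ and wild type pretreated groups correlated at 0.543 to 0.641, with no label that ties them. With a dye term per group, a check chosen after seeing the data, the same correlations were between -0.0077 and 4.55e-05.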

Additional observations from a re-analysis of the deposited data

Results flagged for a closer look

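5 differences between groups were past the threshold of their own test. Adapted minus pretreated wild type cells gave 1.16 log2 units for YNL134C and 1.12 for YMR090W (limma adjusted p = 0.0368 and 0.00358). On pretreatment, the yap1Δ strain minus wild type gave 1.09 for YNL134C and 0.81 for YMR090W (limma adjusted p = 0.00507 and 0.00426), and the rox1Δ strain minus wild type gave -0.88 for YMR090W (limma adjusted p = 0.0139). All 5 comparisons had no overlap between the 4 arrays of either group. The 5 were picked by a test on the same arrays, so this adds no separate support. The share of all ORFs without overlap in these comparisons was not counted. No array of a group stood far enough from the other 3, in either ORF, to be singled out.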

How the results depend on the processing

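Acute values of the pair moved by less than the SD of the arrays under each alternative run. Ranks were recomputed with centring, which moved none, and with loess, which moved the acute rank of YNL134C from 7 to 5 and YMR090W from 27 to 32 in pretreated and from 44 to 49 in yap1Δ cells. No called value changed sign. Of values not called, YNL134C pretreated reached 0.02 and YNL134C mga2Δ 0.14 with 1 replicate left out, and the mga2Δ differences reached -0.03 (YNL134C) and 0.03 (YMR090W). With no dye term, YNL134C adapted minus pretreated (1.16, limma adjusted p = 0.51) and yap1Δ minus wild type (1.09, 0.0835), and YMR090W rox1Δ minus wild type (-0.88, 0.0639), lost their calls. YMR090W pretreated (0.48) gained a call with a dye term per group (limma adjusted p = 0.00347), without the acute arrays (0.0253), on its own arrays alone (0.0024) and on those arrays with all their ORFs (0.00281). The same held for YMR090W rox1Δ (-0.40, 0.0295) with a dye term per group, YMR090W mga2Δ (0.40, 0.0289, but 0.073 with all ORFs) on its own arrays, and YNL134C pretreated (-0.17, 0.0192 and 0.0232 with all ORFs). YNL134C adapted minus pretreated missed the threshold on the arrays compared (1.16, 0.0623, and 0.0643 with all ORFs). The cause was not tested.

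Counts of ORFs called moved more. Without a dye term, 11 were called in pretreated, 156 in adapted, 1 in rox1Δ and 668 in yap1Δ cells and 8 in adapted minus pretreated, against 44, 593, 4, 1572 and 22 with it, and 0, 11 and 205 in the mga2Δ, rox1Δ and yap1Δ differences against 1, 63 and 719. A dye term per group gave 208 pretreated, 1341 adapted, 5 mga2Δ and 77 rox1Δ calls, and 326, 26, 365 and 1571 for the 4 differences. Without the acute arrays, adapted minus pretreated had 73 calls and the mga2Δ difference 2. Fits on the arrays compared gave 1482 pretreated, 1529 adapted, 22 mga2Δ and 2779 yap1Δ calls, 36 for adapted minus pretreated and 3 for the mga2Δ difference, and with all their ORFs 1682, 1818, 2 and 3314 calls, 59 for adapted minus pretreated and 1199 for the yap1Δ difference. Loess gave 0 calls for the mga2Δ difference.

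Of the 5 nearest ORFs, 3 were shared for each member when group means were used, and 0 (YNL134C) and 1 (YMR090W) without the acute arrays. Leaving out 1 replicate gave 18 to 30 pretreated, 272 to 447 adapted, 3 to 7 rox1Δ and 1156 to 1321 yap1Δ calls, 9 to 40 for adapted minus pretreated, 0 to 2, 32 to 61 and 459 to 697 for the strain differences, 0.97 to 1.33 for YNL134C adapted minus pretreated, and -0.98 to -0.78 for YMR090W rox1Δ minus wild type. Deviations of same-numbered arrays correlated at over 0.1 in all 4 pairs of the yap1Δ comparison and in 3 of 4 pairs of acute and adapted arrays. In adapted minus pretreated, mga2Δ and rox1Δ comparisons they ran from -0.652 to -0.106. The replicate block changed no call of the pair and gave 38 calls for adapted minus pretreated. The table of numbered spots could not be paired with ORFs, so that alternative was not run.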

Other observations

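The mRNA of the deleted regulators was read in the other groups. YAP1 had a mean log2 ratio of 2.21 ± 0.12 (SD, n = 4) in acute cells, rank 102, and of 0.20 in adapted and -0.16 in pretreated wild type cells. In the rox1Δ strain it stood at 0.22 ± 0.06 (SD, n = 4). ROX1 had a mean of 1.11 in acute cells with an SD of 1.18, and MGA2 of -0.21 with an SD of 0.73, so the arrays of these 2 genes spread over more than their mean. They split by dye: ROX1 gave 1.59 and 2.55 with treated RNA in Cy5 and 0.25 and 0.05 in Cy3, and MGA2 -0.71 and -0.95 against 0.40 and 0.43. In pretreated and adapted wild type cells ROX1 had means of -0.62 and -0.50, and MGA2 of 0.21 and 0.40, again split by dye. None of the 3 was among the ORFs tested.

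Over the 20 arrays outside the acute group, the ORFs nearest to YNL134C were DDI1 (RMS difference 0.30), a ubiquitin-binding shuttle protein, and LPL1 (0.30), a phospholipase. Nearest to YMR090W were HSP31 (0.32) and LYS20 (0.39), a homocitrate synthase. DDI1, LPL1 and LYS20 were named after their values were seen.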
